A study of Mus musculus with 82 samples.

Results

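Tek, Tie1, Flt4 and Lyve1, receptors of the endothelium that lines blood and lymph vessels, were followed in liver RNA of BXD recombinant inbred mice. They were taken as the probes whose platform annotation gives one of these symbols. Each receptor had 1 probe, so there were 4 features among 21915 tested, of which 3439 carried a gene name. The BXD strains descend from crosses of C57BL/6J (B6) and DBA/2J (D2), and each is inbred for its own mosaic of both parental genomes.

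Liver RNA of 17 BXD strains was hybridised on two-colour arrays against an embryo mix, made of B6 embryos at day 17.5, on 40 arrays of females and 32 of males. A further 2 arrays set B6 male liver against that mix, and 6 arrays set B6 liver directly against D2 liver. None of these groups is labelled with a drug or a transgene. The series text gives 3 unfasted males of 10 to 20 weeks per strain and names 18 BXD strains, whereas the array labels hold both sexes and 17 strains. The sources used here do not say whether mice were pooled, so p-values measure only the spread between these strains or samples. All values are log2 ratios, and all folds below rest on reading the deposited values as log10 ratios. The likely direction, with liver on top, was read from hepatocyte genes, whose median over 6 measured genes was above 0 on 74 of 74 arrays, with the lowest at 2.67.

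Tek (also called Tie2) is the receptor tyrosine kinase for angiopoietins, which keep vessels stable or loosen them. Tie1 is its close relative, has no angiopoietin that binds it tightly by itself, and modulates Tek signalling in the same membrane. Flt4 (VEGF receptor 3) binds Vegfc and Vegfd, drives lymph vessel growth, and is also made by the sinusoidal endothelium of liver. Lyve1 is a hyaluronan receptor of lymph vessels, of liver sinusoidal endothelium and of some macrophages. Liver sinusoids are lined by a fenestrated endothelium that shares several genes with lymph vessels. In whole liver a lower ratio can come from fewer cells of a type or from less RNA per cell, and these cannot be told apart here.

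Promoters were available for 3 of the 4 receptors in a RefSeq table of build GRCm38.p6, as 250 bases before and 50 after the gene start. They are shown because ETS factors, which bind sites around a GGAA core, and GATA factors are known regulators of endothelial genes. Capitals mark the ETS core (GGAA, or TTCC on the other strand) and the GATA motif (AGATAA, or TTATCT on the other strand), and no match overlapped another. The Tek promoter is chr4:94739039-94739338 (plus strand), the Tie1 promoter is chr4:118489800-118490099 (minus strand) and the Flt4 promoter is chr11:49609429-49609728 (plus strand), each printed 5′ to 3′ along the gene's strand.
Tek: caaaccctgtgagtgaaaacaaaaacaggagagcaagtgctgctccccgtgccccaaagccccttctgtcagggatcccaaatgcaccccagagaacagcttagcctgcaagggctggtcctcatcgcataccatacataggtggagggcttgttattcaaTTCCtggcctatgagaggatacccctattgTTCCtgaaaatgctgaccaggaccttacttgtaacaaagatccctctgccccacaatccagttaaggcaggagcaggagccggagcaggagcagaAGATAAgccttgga
Tie1: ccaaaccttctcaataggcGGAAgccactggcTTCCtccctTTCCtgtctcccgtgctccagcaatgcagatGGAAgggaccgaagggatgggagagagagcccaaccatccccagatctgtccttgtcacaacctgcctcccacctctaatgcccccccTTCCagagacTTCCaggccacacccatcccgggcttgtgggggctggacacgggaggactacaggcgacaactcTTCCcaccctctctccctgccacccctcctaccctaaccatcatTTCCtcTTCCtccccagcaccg
Flt4: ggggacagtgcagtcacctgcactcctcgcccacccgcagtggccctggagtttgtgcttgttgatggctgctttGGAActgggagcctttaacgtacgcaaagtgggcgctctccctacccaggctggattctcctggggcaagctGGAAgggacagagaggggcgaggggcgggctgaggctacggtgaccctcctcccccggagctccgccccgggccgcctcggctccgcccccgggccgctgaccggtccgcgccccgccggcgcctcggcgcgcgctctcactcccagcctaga
The Tie1 window held 9 ETS cores, and 1.59% of the 32851 promoters in the table held as many or more. Tek and Flt4 held 2 each, a number reached by 84.6% of promoters. At least 1 ETS core was present in 96.0% of promoters and a GATA motif in 11.2%. The only GATA motif in these windows lay in Tek, close to the end of the window. These matches describe the letters and do not show binding.

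Liver was first set against the embryo mix on the means of the 13 strains that had arrays in both orientations, that is, with liver RNA in channel 2 on some arrays and in channel 1 on others. Flt4 was higher in liver, Tek was lower, Lyve1 was lower on average and Tie1 did not pass the test. Of all features, 84% passed an adjusted p of 0.05 in this comparison (48.4% higher and 35.6% lower), so a call by itself sets a gene little apart. None of the 4 receptors reached an absolute log2 ratio of 1, which 13.9% of features did together with the adjusted p.

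The Tek strain means ran from -0.96 in BXD12 through a median of -0.69 to -0.48 in BXD15, all below 0. Their mean of -0.72 ± 0.16 (SD, n = 13 strains) is 1.65-fold lower in liver (limma, SE 0.0435, Benjamini-Hochberg adjusted p = 2.44e-10). The single arrays say the same of Tek. On the 31 arrays with liver in channel 2 it read between -1.19 and -0.16, and on the 40 with liver in channel 1 between -1.37 and -0.11, so no array was above 0.

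Flt4 stood on the other side of 0. Its strain means ran from 0.56 in BXD18 through a median of 0.77 to 1.09 in BXD32, all above 0. The mean of 0.75 ± 0.16 (SD, n = 13 strains) is 1.69-fold higher in liver (limma, SE 0.0426, Benjamini-Hochberg adjusted p = 1.09e-10). Single arrays ran between 0.42 and 1.21 with liver in channel 2 and between 0.03 and 1.17 with liver in channel 1. Sizes like these were common across the array, since 22.3% of features had an absolute ratio as large as that of Tek and 21.01% as large as that of Flt4.

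Tie1 lay close to 0. Its strain means ran from -0.35 in BXD11 through a median of -0.04 to 0.15 in BXD6, with 9 strains below 0 and 4 above. The BXD11 mean included a female array at -1.38, whose swapped array read -0.23. The mean over strains was -0.07 ± 0.16 (SD, n = 13 strains; limma, SE 0.0422, Benjamini-Hochberg adjusted p = 0.150). Centring each array on its own median moved it to -0.12 (adjusted p = 0.0166, limma with Benjamini-Hochberg), on the other side of the threshold, and adding the 4 strains with 1 orientation turned its sign to 0.05 (adjusted p = 0.560). The direction of Tie1 is therefore not settled by these arrays.

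Lyve1 had strain means from -0.63 in BXD15 through a median of -0.09 to 0.18 in BXD18, with 11 strains below 0 and 2 above. Its mean was -0.22 ± 0.28 (SD, n = 13 strains), 1.17-fold lower in liver (limma, SE 0.0707, Benjamini-Hochberg adjusted p = 0.00881). That mean joined arrays of opposite sign. In 31 pairs of arrays of the same RNA, Lyve1 read from -1.002 through a median of 0.39 to 0.73 with liver in channel 2, against -2.05 through -0.66 to 0.01 with liver in channel 1. The difference averaged 0.94 ± 0.46 (SD, n = 31 pairs) and was above 0 in 30 of 31 pairs. Only 5.001% of features had an orientation difference as large, and the median over all features was 0.21. With liver in channel 2 alone the Lyve1 mean was 0.23 (adjusted p = 0.0126), whereas in channel 1 alone it was -0.68 (adjusted p = 1.20e-06, both limma with Benjamini-Hochberg). The liver against embryo direction of Lyve1 thus turned with the channel.

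The other receptors moved less with orientation. Channel 2 minus channel 1 was 0.18 ± 0.23 for Flt4, 0.10 ± 0.16 for Tek and 0.03 ± 0.48 for Tie1 (SD, n = 31 pairs each). For Flt4 and Tek the orientation difference was smaller than the distance of their means from 0. For Tie1 the pairs scattered widely on both sides, with 18 of 31 above 0.

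**Figure D1:**
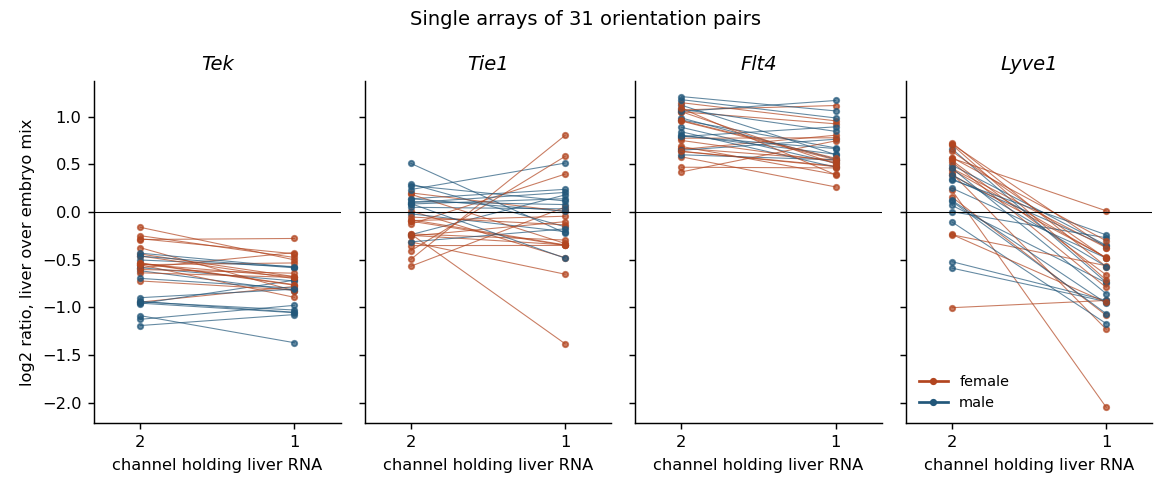
Log2 ratio of liver over embryo mix (vertical axis) on single arrays with liver RNA in channel 2 or channel 1 (horizontal axis), for 31 pairs of arrays of the same RNA. Lines join a pair and colours mark females and males. All Tek points lie below 0 and all Flt4 points above it, whereas Lyve1 is higher with liver in channel 2 in 30 of 31 pairs.

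The B6 male arrays, which entered no fit and shared the embryo mix, gave values on the same sides for Tek and Flt4. With liver in channel 2 and in channel 1, Tek read -0.84 and -0.76, Flt4 read 0.82 and 0.62, Tie1 read 0.27 and -0.13, and Lyve1 read 0.40 and -0.55. The Lyve1 arrays were again split by orientation, and the Tie1 arrays lay on both sides of 0.

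The ligands and partners of these receptors were followed through lists, which were chosen with earlier results of these data known. Few members were named on this array. The counts of higher and lower genes below stand beside the 84% of all features called in this comparison, 48.4% higher and 35.6% lower. Of 18 listed symbols for Tie ligands and the relay of their signal, 4 were measured. Here 3 were higher and 1 was lower in liver: Grb14, an adaptor of receptor kinases, at 0.88, the angiopoietin Angpt4 at 0.55, the transcription factor Foxo1, which Tek signalling through Akt holds out of the nucleus, at 0.36, and Dok2, an adaptor of Tek, at -0.12 (limma, Benjamini-Hochberg adjusted p up to 8.87e-04). None of them reached a ratio of 1.

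Of 11 listed VEGF ligands and receptors 6 were measured, of which 1 was higher and 5 were lower. The Flt4 ligands were among the lower ones, Vegfc at -0.78 ± 0.13 and Vegfd at -0.18 ± 0.16 (SD, n = 13 strains), on the opposite side of 0 from their receptor. Vegfb, a ligand of Flt1, stood at -1.82 ± 0.29 and Nrp1, a coreceptor for VEGF, at -1.01 ± 0.45. The VEGF receptor Flt1 stood at -0.48 ± 0.14 and the ligand Pgf at 0.32 ± 0.07. Adjusted p-values of these 6 genes reached 0.00112 at most (limma, Benjamini-Hochberg). The list's median was -0.63, beside 0.07 over all features.

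Of 11 lymphatic symbols 3 were measured. Pdpn, the membrane glycoprotein podoplanin of lymph vessels and of several embryonic epithelia, was lower at -2.03 ± 0.12. Prox1, the transcription factor that specifies lymphatic endothelium and is also made by hepatocytes, was higher at 0.15 ± 0.12, and Sox18, which acts upstream of Prox1, read -0.06 ± 0.11 (adjusted p = 0.0928, limma with Benjamini-Hochberg).

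Of 32 endothelial and sinusoid symbols 5 were measured, with 1 higher and 4 lower. Fcgr2b, an Fc receptor made by sinusoidal endothelium and by B cells and macrophages, was higher at 1.08 ± 0.19. The adhesion regulator Emcn (-1.22 ± 0.12), the receptor partner Ramp2 (-1.25 ± 0.18), the TGF-beta coreceptor Eng (-0.57 ± 0.36) and the mannose receptor Mrc1 (-0.48 ± 0.19) were lower. The list's median was -0.57. The embryo mix holds the vessels of a whole embryo, so each ratio sets adult liver against many tissues. Its own spread is outside the test, because the mix is a single reference.

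**Figure D2:**
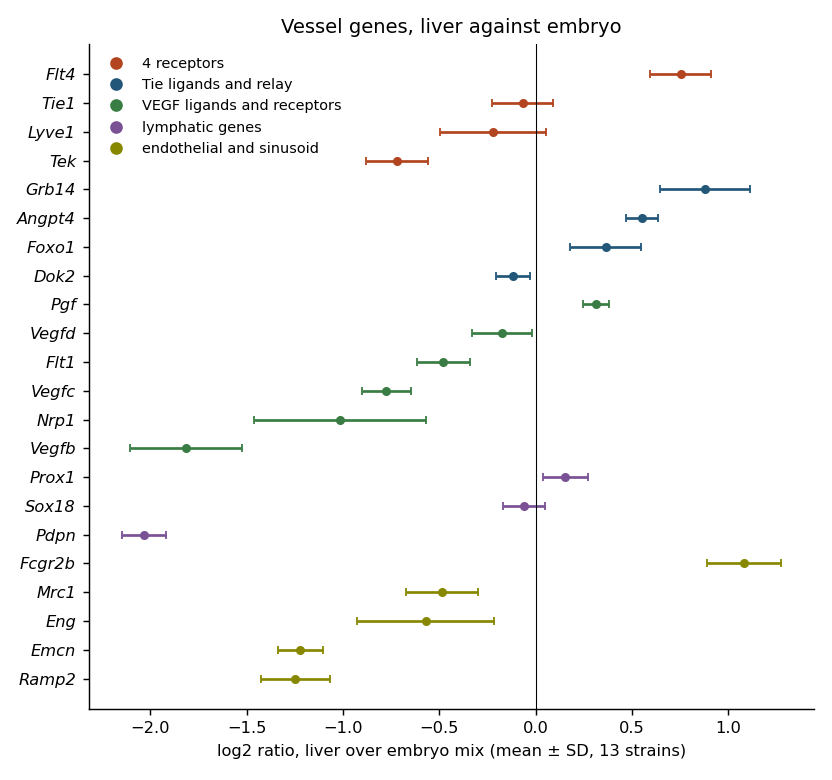
Log2 ratio of liver over embryo mix (horizontal axis, mean ± SD over 13 strains) for the 4 receptors and the measured genes of 4 vessel lists, 1 gene per row and 1 colour per list. Flt4 and Fcgr2b lie above 0, Tek, Emcn, Ramp2 and Pdpn lie below it, and the bars of Tie1 and Lyve1 cross 0.

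Females were compared with males within each of the 17 strains. Tek was higher in females, and Tie1 and Flt4 were lower. Lyve1 did not pass the test. In this comparison 33.3% of features passed an adjusted p of 0.05, with 16.2% higher and 17.1% lower in females. The female and male values overlapped for all 4 receptors, and they did not overlap for 0.0684% of features.

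Tek read from -0.86 through a median of -0.58 to -0.11 in females, against -1.23 through -0.98 to -0.52 in males. Females were above males in 15 of 17 strains, and the exceptions, BXD19 at -0.07 and BXD28 at -0.03, were close to 0. The difference was 0.33 ± 0.22 (SD, n = 17 strains), or 1.25-fold (limma with strain as a block, SE 0.0549, Benjamini-Hochberg adjusted p = 2.49e-04). With arrays centred and scaled to 1 spread the difference was 0.21 (adjusted p = 0.0103, limma with Benjamini-Hochberg). The widest gap was 0.71 in BXD14, where each sex had 1 array. Over the 13 strains with both orientations the mean was 0.27 ± 0.21, against 0.52 ± 0.14 over the 4 strains with 1 orientation (SD over strains). The gap of 0.25 between these sets of strains did not pass (adjusted p = 0.250, limma with Benjamini-Hochberg). Both sexes stayed below the embryo mix in every strain.

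Tie1 went the opposite way. It read from -0.80 through a median of -0.12 to 1.12 in females, against -0.24 through 0.15 to 0.97 in males. The lowest female value, that of BXD11, averaged a channel 1 array at -1.38 and its swapped array at -0.23. Females were below males in 13 of 17 strains. The difference was -0.28 ± 0.33 (SD, n = 17 strains), or 1.22-fold lower (limma with strain as a block, SE 0.0777, Benjamini-Hochberg adjusted p = 0.00873). The call was lost on the arrays with liver in channel 1 alone (-0.24, adjusted p = 0.191, limma with Benjamini-Hochberg). Against the embryo mix Tie1 averaged -0.19 in females and 0.06 in males of the 13 strains with both orientations.

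Flt4 ran from 0.07 through a median of 0.64 to 1.07 in females, against 0.03 through 0.73 to 1.11 in males. Females were below males in 15 of 17 strains, but by little: the difference was -0.12 ± 0.14 (SD, n = 17 strains), or 1.08-fold lower (limma with strain as a block, SE 0.0406, Benjamini-Hochberg adjusted p = 0.0340). That call was lost when any 1 of 7 strains was left out (BXD2, BXD6, BXD12, BXD14, BXD15, BXD19 or BXD21, adjusted p up to 0.0665) and under quantile normalization of the arrays (-0.04, adjusted p = 0.622).

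Lyve1 ran from -0.91 through a median of -0.13 to 0.29 in females, against -1.91 through -0.28 to 0.07 in males. Females were above males in 13 of 17 strains, with a difference of 0.20 ± 0.48 (SD, n = 17 strains; limma with strain as a block, SE 0.109, Benjamini-Hochberg adjusted p = 0.165). The difference of 1.70 in BXD14, where each sex had 1 array, stood well above the next strains. Over the 13 strains with both orientations the mean was 0.09 ± 0.32.

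**Figure D3:**
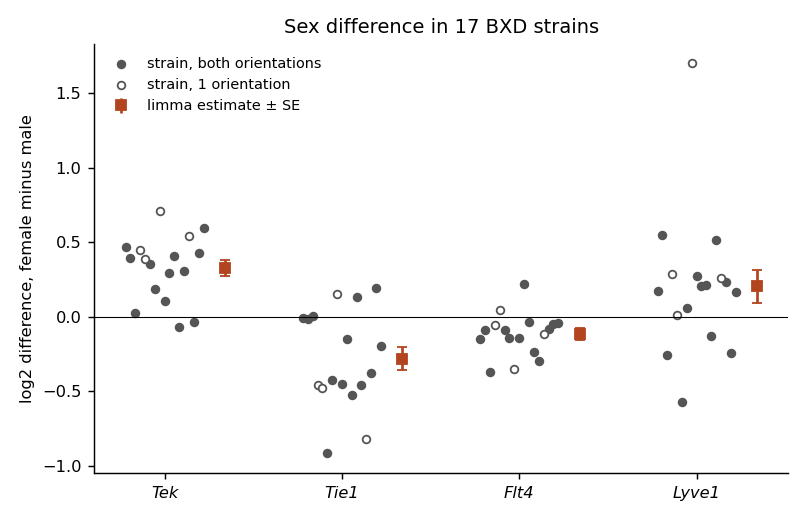
Log2 difference of female minus male (vertical axis) for each receptor (horizontal axis). Circles are the 17 strains, open where a strain had 1 orientation, and squares are the limma estimate with its SE. Tek lies above 0 in 15 strains, Tie1 below 0 in 13 and Flt4 below 0 in 15, and Lyve1 spreads to 1.70 in BXD14.

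The labels name no batch. For a check, the order of deposit was divided here into 10 runs, most of them a stretch of arrays with liver in channel 1 followed by the swapped arrays of the same RNAs, and whether a run shared a hybridisation or a scan is unknown. In each of the 13 strains with both orientations, males and females lay in different runs, with the males deposited earlier. Sex and run therefore cannot be told apart within these strains. Only BXD8, BXD9, BXD14 and BXD27 had both sexes in the same run. The sex difference was also taken within the 5 runs that held both sexes. Within these, Tek was higher in females each time, by 0.29 to 0.63, and Tie1 was lower each time, at -0.82 to -0.09. The runs were small, with 1 female and 1 male value, 1 and 5, 2 and 2, 4 and 2, and 3 and 3. In 3 of these runs the females and males were of different strains. The others held pairs of BXD8, BXD9, BXD14 and BXD27 that are also in the 17-strain test. How many of all features kept their sign in every run was not counted. Flt4 was lower in females in 4 of 5 runs, with a range of -0.39 to 0.26, and Lyve1 ranged from -0.92 to 0.67. With the run as a term in the fit, Tek stood at 0.48 (adjusted p = 9.85e-04) and Tie1 at -0.37 (adjusted p = 0.0276), while Flt4 at -0.09 (adjusted p = 0.324, all limma with Benjamini-Hochberg) no longer passed.

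Over the 4 vessel lists 6 of 18 measured genes differed between the sexes, or 33.3%, the same share as over all features. Of the 5 measured endothelial and sinusoid genes 3 were higher in females and none was lower: Mrc1 by 0.65 (adjusted p = 3.88e-05), Fcgr2b by 0.53 (adjusted p = 0.00240) and Emcn by 0.25 (adjusted p = 2.96e-04, all limma with Benjamini-Hochberg). Ramp2 differed by 0.18 and Eng by -0.02, and neither passed. The list's median difference was 0.25, beside 0.02 over all features. Its level in a strain, taken as the median over its genes, ran from -1.21 through -0.54 to 0.02 in females, against -1.18 through -0.78 to -0.37 in males.

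Among Tie ligands and relay genes, Angpt4 was lower in females by -0.21 (adjusted p = 0.00202) and Dok2 was higher by 0.15 (adjusted p = 0.00303, both limma with Benjamini-Hochberg). Of 6 VEGF genes Vegfd was higher by 0.15 (adjusted p = 0.0478, limma with Benjamini-Hochberg), and of 3 lymphatic genes none passed, with 0.12 for Sox18 as the largest (adjusted p = 0.0685, limma with Benjamini-Hochberg). Over 6 lists of other liver and blood cells 8 of 25 measured genes passed, or 32%, near the 33.3% of all features. The complement genes C1qa (0.33) and C1qb (0.37) of macrophages were higher in females and the macrophage gene Cd5l (-0.19) was lower, of 4 measured. Of 5 stellate cell and fibroblast genes Lrat (0.27) and Lum (0.27) were higher. Of 4 lymphocyte genes Ptprc (0.22) and Cd3e (0.13) were higher, and of 5 red blood cell genes Rhag (-0.66) was lower. The bile duct gene Epcam read -0.12 and did not pass. The list level of macrophage genes ran from -0.08 to 0.69 in females, against -0.11 to 0.50 in males, and that of stellate genes from -1.51 to -0.45 in females, against -1.25 to -0.57 in males. The part of these cells in the receptor differences was not tested. None of 6 hepatocyte genes passed, and their smallest adjusted p was 0.161 (limma, Benjamini-Hochberg).

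Strains were compared over 26 values, a female and a male value for each of the 13 strains with both orientations. No receptor passed the test after adjustment. The background was low too, with 1.21% of features called. The moderated F was 3.78 for Flt4 (adjusted p = 0.185), 3.39 for Lyve1 (adjusted p = 0.227), 2.37 for Tek (adjusted p = 0.366) and 1.12 for Tie1 (adjusted p = 0.669, all limma with Benjamini-Hochberg). Before adjustment Flt4 and Lyve1 passed 0.05 in the limma fit, as did 14.2% of features.

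Flt4 strain means spanned 0.53 and were ordered from BXD18, BXD15 (0.58) and BXD19 (0.59) up to BXD16 (0.88), BXD6 (0.92) and BXD32 (1.09). Among the 12 steps between neighbouring strains in that order, only 1, of 0.17 below BXD32, exceeded the SE of a difference between strains (0.12). Lyve1 spanned 0.81, and 1 of 12 steps exceeded that SE (0.21), between BXD6 (-0.46) and BXD5 (-0.14), with 5 strains below the step and 8 above it. Males of these 5 strains made up 1 run of the deposit order as divided above, where Lyve1 averaged -0.59 on 10 arrays. BXD6 males also had arrays in another run. Females of the 5 strains, all in other runs, read from -0.91 to -0.21, against -0.20 to 0.29 in the 8 strains. The part of the run in this step was not tested. Tek spanned 0.47 and Tie1 0.50, and in both no step exceeded the SE (0.15 for Tek and 0.21 for Tie1). Neighbouring strains are thus mostly not told apart.

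**Figure D4:**
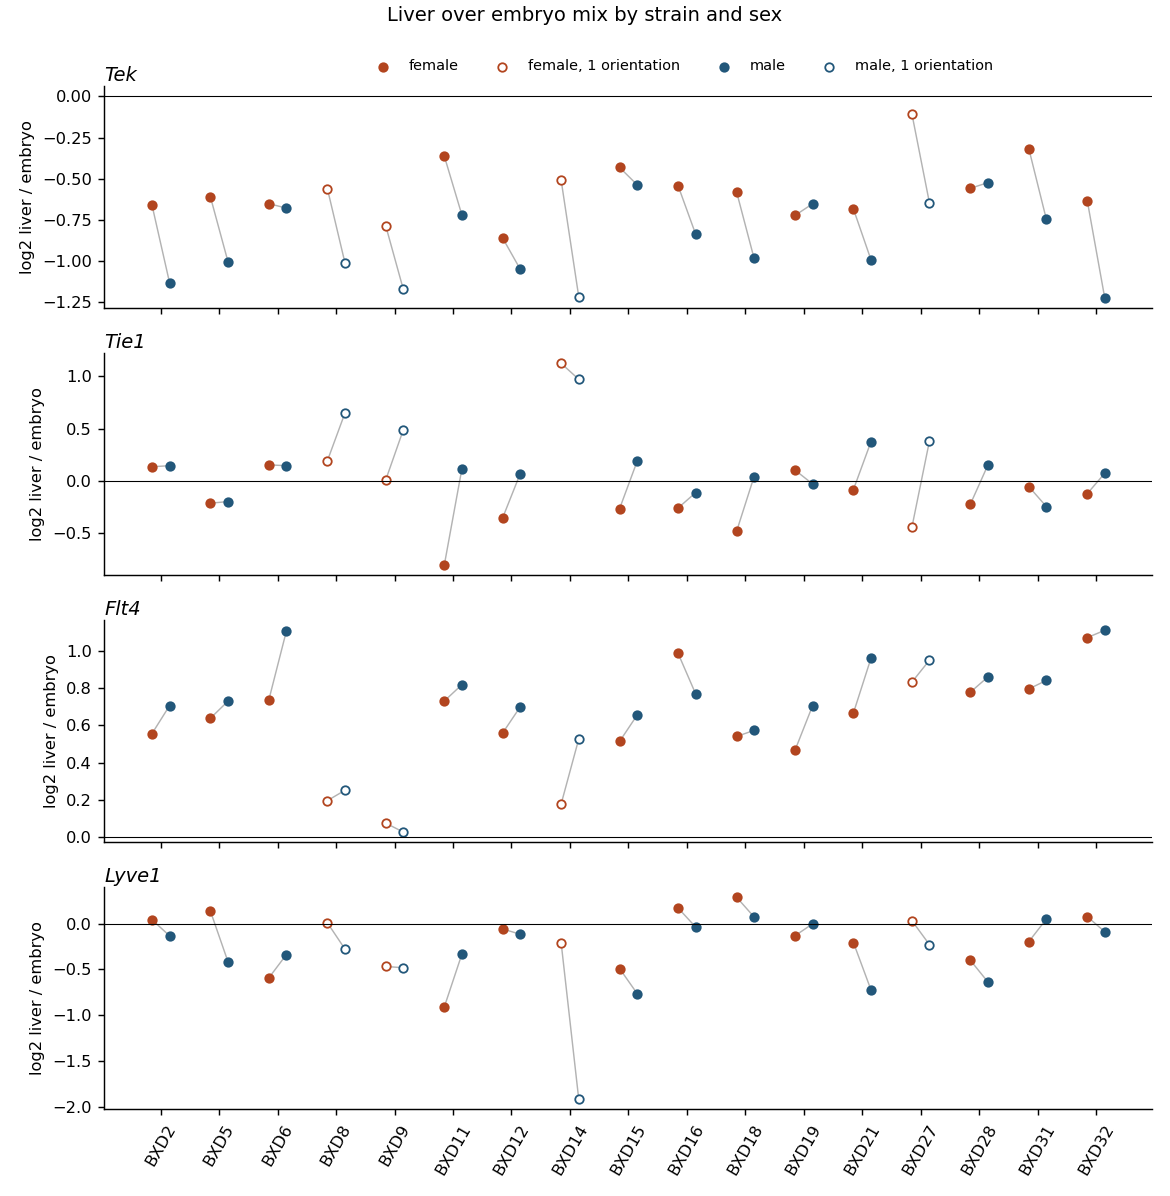
Log2 ratio of liver over embryo mix (vertical axes) for each of 17 BXD strains (horizontal axis), with females left of males and a grey line joining them. Open circles are strains with 1 orientation. Flt4 of BXD8, BXD9 and BXD14 reads low in both sexes and Tie1 of BXD14 reads high in both, and Tek is mostly higher in females.

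The male and female values of a strain are separate RNAs of 1 genotype, so their agreement was compared across the 13 strains. Flt4 agreed most, with Pearson r = 0.666 (permutation p = 0.0137, adjusted over the 4 receptors 0.0547) and Spearman rho = 0.802 (permutation p = 0.00168, adjusted 0.00672, two-sided). Without the 2 strains whose male values lay farthest from the male median, r was 0.552 (permutation p = 0.0807). Leaving out the ends of a range can by itself lower r. Lyve1 had r = 0.512 and rho = 0.566 (permutation p = 0.0727 and 0.0469, adjusted 0.145 and 0.0937), Tek had r = 0.462 and rho = 0.407 (permutation p = 0.114 and 0.170, adjusted 0.151 and 0.227), and Tie1 had r = 0.003 and rho = 0.038 (permutation p = 0.992 and 0.906). BXD32, for example, had Flt4 at 1.07 in females and 1.11 in males, and BXD18 at 0.54 in females and 0.57 in males.

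When all 17 strains entered, the strain test called Flt4 (F = 10.0, adjusted p = 2.90e-04) and Tie1 (F = 4.02, adjusted p = 0.0167, both limma with Benjamini-Hochberg). Calls were common in that test, where 5642 of 21915 features passed, against 265 over the 13 strains. Both receptor calls ended when BXD8, BXD9 and BXD14 were left out, a choice made after seeing the data, and 558 features then passed. The arrays of these 3 strains had liver in channel 1 only and lay in 1 run of the deposit order as divided above. On those 6 arrays Flt4 read from 0.03 through a median of 0.19 to 0.53, against 0.26 through 0.63 to 1.17 on the other 34 channel 1 arrays. Tie1 read from 0.01 through 0.57 to 1.12 there, against -1.38 through -0.07 to 0.80. Strain and run cannot be told apart for these 3 strains. BXD27, the other strain with 1 orientation, lay in another run and had Flt4 at 0.83 in females and 0.95 in males, within the range of the 13 strains.

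Of 6 pairs of receptors compared over 13 strain means none passed adjustment. The strongest relation was between Tek and Lyve1, with r = -0.561 and rho = -0.505 (permutation p = 0.04999 and 0.0811, adjusted over 6 pairs 0.300 and 0.486), and r was -0.518 without the 2 strains farthest from the Tek median. Over all 17 strains that r was -0.0919, and the strongest pair was Tie1 and Lyve1 (r = -0.572, rho = -0.287, permutation p = 0.0191 and 0.263, adjusted 0.113 and 0.414). Without BXD8, BXD9 and BXD14 the r of Tie1 and Lyve1 was -0.145. BXD14, with 1 array per sex, stood at 1.05 for Tie1 and -1.06 for Lyve1. For Tek and Tie1, which sit in 1 receptor complex, r was -0.239 and rho -0.209 (permutation p = 0.425 and 0.494, adjusted 0.888 and 0.979).

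Named features most like each receptor were ranked by Pearson r over the same 26 values, which share the embryo mix and, within a strain, the genotype. Sex was left in these values, so a receptor that differs by sex can rank other genes that differ by sex. For Tek they were Kifap3 (0.82), Cited1 (0.82) and Angel2 (0.79), and the most opposed was Reg3b (-0.85). For Flt4 they were Plk3 (0.92), Gdf6 (0.92) and Vpreb3 (0.89), and the most opposed was Trpm7 (-0.70). For Tie1 they were Ptgdr (0.69), Mlf1 (0.69) and Tll1 (0.67), with Tas2r119 (-0.77) most opposed. For Lyve1 they were Rnase2b (0.81), Rad18 (0.81) and Ptx3 (0.79), with Lgals9 (-0.83) most opposed. No receptor or gene of the vessel lists appears among these 16 names. The 4 receptors and 18 measured list genes are few among 3439 named features, so their absence says little.

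The parental strains were compared directly on arrays of B6 over D2 liver, with 4 values, 1 for each sex and replicate number. No receptor passed the test, and 0.178% of features did (39 features, with 2894, or 13.2%, at an unadjusted p under 0.05). In female replicates 1 and 2 and male replicates 1 and 2, Tek read -0.23, -0.18, 0.26 and 0.15. Females were below 0 and males above, and the mean was 0.00 (SE 0.114, limma with Benjamini-Hochberg adjusted p = 0.994). In the same order Flt4 read -0.05, 0.03, -0.13 and 0.04, within 0.13 of 0 each time, with a mean of -0.03 (SE 0.0753, limma with Benjamini-Hochberg adjusted p = 0.860).

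Tie1 read -0.08 and 1.36 in females and -0.34 and -0.06 in males. The mean of 0.22 (SE 0.292, limma with Benjamini-Hochberg adjusted p = 0.705) was carried by female replicate 2, without which it was -0.16 (adjusted p = 0.702). Lyve1 read 0.31 and 0.29 in females and -0.10 and -0.36 in males, with a mean of 0.04 (SE 0.137, limma with Benjamini-Hochberg adjusted p = 0.901). For every receptor the replicate 2 values are each 1 array with B6 in channel 2, so an orientation effect is not cancelled in them.

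The first replicates had both orientations, and Lyve1 was split by them here too. With B6 in channel 2 it read 0.96 in females and 0.30 in males, against -0.35 in females and -0.49 in males with B6 in channel 1. Tek kept its sign on both orientations, with -0.12 and -0.34 in females and 0.33 and 0.20 in males. Across all features the opposite orientations correlated at only 0.133 in females and -0.0187 in males after turning, so single B6 and D2 values are weakly repeated between orientations.

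The opposite signs of Tek and Lyve1 in the sexes were tested by a sex term on the 4 values. The difference of female minus male was -0.41 for Tek (SE 0.133, unadjusted p = 0.0345, adjusted p = 0.631, limma) and 0.53 for Lyve1 (SE 0.155, unadjusted p = 0.0264, adjusted p = 0.624, limma). Neither passed adjustment, and 0% of features did (0 features in limma, with 1673, or 7.63%, at an unadjusted p under 0.05). For Tie1 the difference was 0.84 and for Flt4 0.03. No gene of the 4 vessel lists was called between B6 and D2 or between BXD strains, with smallest adjusted p-values of 0.398 between the parents and 0.123 between the BXD strains (limma, Benjamini-Hochberg). The largest of their B6 over D2 means was 0.20 for Emcn.

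**Figure D5:**
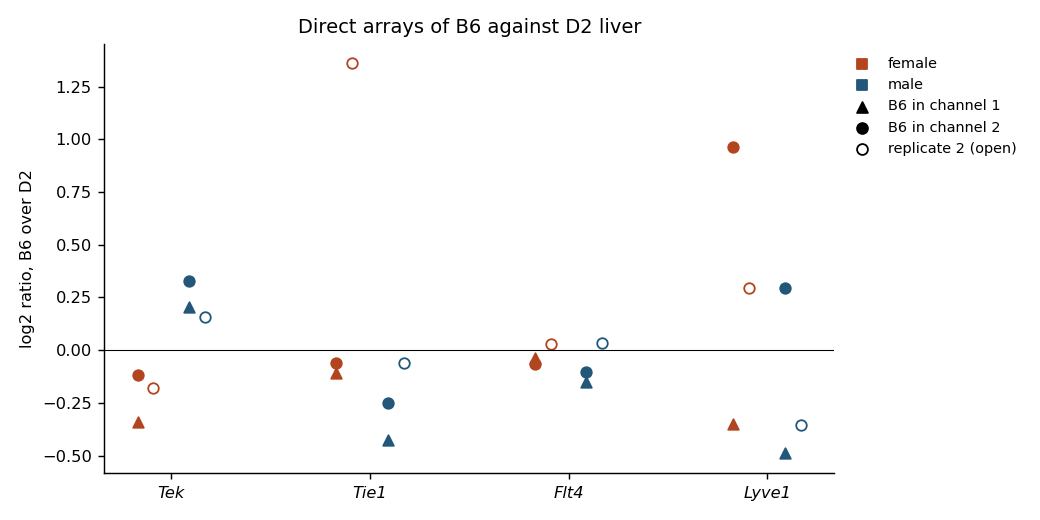
Log2 ratio of B6 over D2 liver (vertical axis) for each receptor (horizontal axis) on 6 arrays, with females left of males, triangles for B6 in channel 1, circles for B6 in channel 2 and open symbols for replicate 2. Tek lies below 0 in females and above 0 in males, Flt4 stays near 0, Tie1 has 1 female array at 1.36, and in the first replicates of each sex Lyve1 is higher with B6 in channel 2.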

How the data were processed

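The deposited values are 1 log10 ratio per probe and array; the submitters state no unit, and log10 was inferred from 94 values at exactly 2 or -2. They were multiplied to log2. The sources used here name no array maker, scanner or normalization, and signal over background was not analysed here. Array SDs over probes were 0.69 to 1.12 on BXD arrays, and the number of arrays limits the precision. Swapped arrays were turned so that liver, or B6, was on top. The 1 array of a BXD11 female whose labels conflict on its orientation was left out. Arrays were averaged per strain, sex and orientation, then over orientations. Features were tested with limma 3.58.1 (R 4.3.3; lmFit, eBayes) and Benjamini-Hochberg adjustment at 0.05 over 21915 features, after tests on simulated data. Correlations used 100000 permutations, two-sided. The receptors and the gene lists were chosen with earlier results of these data known. Named genes are the 4 receptors, every measured gene of the vessel lists and marker genes beside the sex result, and per receptor the 3 most alike and the 1 most opposed named features. Alternatives covered normalization, orientation, sexes, replicates, strain sets, dye terms and runs, which are stretches of the deposit order divided here and named by no label.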

Additional observations from a re-analysis of the deposited data

Results flagged for a closer look

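Of 24 groups of 4 to 10 arrays or values checked for a value far from the others, 1 had such a value. Chance alone gives about 1 in 20 where the values of a group are independent and share 1 distribution. Most groups held the arrays of 1 strain and sex in both orientations, so they do not meet this. For Lyve1, which split by orientation, the check could hardly flag a value there. The flagged group was Tie1 on the direct arrays of B6 over D2 liver. Female replicate 2 read 1.36 there, the nearest other value was -0.06 and the opposite end was -0.34. The gap was 0.835 of the whole range. That replicate had 1 array, with B6 in channel 2.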

How the results depend on the processing

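Of 539 alternative values, 471 kept their direction and their side of the threshold or stayed close to the reported value. Of these alternatives, 248 left out 1 strain or value in turn and so share most of their data, and 231 of them were kept. Of the other 291, 240 were kept. A result that was not called and stayed so also counts as kept. In every alternative run for liver against embryo and for the sexes, Tek and Flt4 kept their direction. The cause of the changes below was not tested, apart from fewer strains or arrays where these were left out. For liver against embryo, reading the deposited values as log2 left 209 features called with size. Tie1 was -0.12 both with centred (adjusted p = 0.0166) and with centred and scaled arrays (adjusted p = 0.0136), -0.19 in females only (adjusted p = 0.0209), 0.0551 in males only and 0.0476 over all 17 strains. Lyve1 was 0.23 with liver in channel 2 only, and -0.18 in females only (adjusted p = 0.0813). For the sexes, the run as a term left 4695 features called, and the 4 strains with 1 orientation gave 0 (limma, with 3276 at an unadjusted p under 0.05), with Tek at 0.52, Tie1 at -0.40 and Flt4 at -0.12. Tek was 0.21 with centred and scaled arrays. Tie1 was -0.24 with channel 1 only and -0.28 without the strain block (adjusted p = 0.0857). Flt4 was -0.0359 under quantile normalization, -0.0583 centred and scaled, -0.12 with channel 1, -0.11 with channel 2, -0.10 with replicate number 1 only, -0.12 over 13 strains with both orientations and without the strain block, -0.0921 with the run as a term and -0.12 over 14 strains. With strains left out in turn, Flt4 ranged from -0.14 to -0.10. For strain differences, 147 features were called with channel 1, 101 with channel 2, 74 with no sex term, 5642 over all 17 strains and 558 over 14 strains, and between 150 and 286 with a strain left out in turn (150 without BXD15). Over 17 strains F was 4.02 for Tie1 and 10.0 for Flt4. Agreement of the sexes over 17 strains was r = 0.604 for Tie1 and 0.864 for Flt4. Over 14 strains it was -0.119 for Tie1 and 0.681 for Flt4, and with centred arrays -0.00209 for Tie1. Between receptors over 17 strains r was -0.0919 for Tek and Lyve1, -0.572 for Tie1 and Lyve1, 0.388 for Tek and Flt4, -0.521 for Tie1 and Flt4 and 0.264 for Flt4 and Lyve1. For Tek and Flt4 it was 0.0828 over 14 strains and 0.205 without the 2 strains farthest from the Tek median. Over 14 strains r was -0.145 for Tie1 and Lyve1 and 0.148 for Tie1 and Flt4. For B6 over D2, 74 features were called with centred and scaled arrays, 0 with limma's trend and robust settings (746 at an unadjusted p under 0.05), 274 with single arrays and a dye term and 510 with the enriched arrays added. A replicate block called 9 features and changed no call of a receptor. Samples of the same replicate number are not known to share an animal. Without each value in turn, 0 to 29 features were called (0 without male replicate 1, with 3016 at an unadjusted p under 0.05 in limma, 2 without male replicate 2, 3 without female replicate 1), Tek ranged from -0.0846 to 0.0803, Tie1 from -0.16 to 0.41, Flt4 from -0.0491 to 0.00523 and Lyve1 from -0.0530 to 0.17. Tek was -5.76e-04 with centred arrays and -0.0115 with a dye term, Tie1 -0.00993 with a dye term and -0.21 on replicate number 1, and Lyve1 -0.0603 with a dye term. Single probes per symbol could change nothing for the receptors, which had 1 probe each.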

Other observations

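Enriched RNA of B6 was set against enriched RNA of D2 on 2 arrays, which were left out of the B6 and D2 values of the receptors and entered only the alternative that added them. The sources used here do not say what was enriched. In the female and the male array, Tek read 0.09 and 0.13, Tie1 0.12 and 0.69, Flt4 -0.17 and -0.11, and Lyve1 0.70 and 0.23. Each is 1 array with B6 in channel 2 and has no replicate check.

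The BXD11 female array that was left out, read as its channel fields give it, had Tek at -0.30, Tie1 at -0.21, Flt4 at 0.37 and Lyve1 at -0.30. Read that way it correlated at 0.846 and 0.835 across features with the other BXD11 female arrays. On the BXD11 female array kept for channel 1, Tie1 read -1.38 and Lyve1 -2.05, the lowest single values of both receptors on the BXD arrays used, whereas the channel 2 array read -0.23 and 0.23.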
